A study of Macaca mulatta with 6 samples.

Results

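The genes described here are those whose symbol starts with PSMA, PSMB, PSMC, PSMD, PSME, PSMF or PSMG, the names given to proteasome subunits and to the factors that activate, inhibit or assemble the particle. They were chosen by symbol, and numbered 41 of the 11963 genes carried by array probe sets that name a single gene. The 41 genes lay on 65 probe sets, a probe set being the group of short probes that reads one transcript, and each gene was represented by its probe set with the highest mean. A level filter, set at the median level of the array's non-control probe sets, was reached by 37 of the 41 genes and by 7164 of the 11963. PSMB8, PSMB10, PSMC6 and PSME3IP1 lay under the filter and are given as levels, apart from fits of PSMC6 and PSME3IP1 without the filter in the closing sections. The symbols also take in PSMC3IP, a factor in meiotic recombination, and PSME3IP1, a binding partner of PSME3, neither of which is a proteasome subunit. PSMA6 and PSME2 were read only by probe sets that name another gene as well and were not used here, and PSMC5, PSMD7 and PSMD13 were not analysed here.

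The question of the series is which adrenal genes of a primate follow the time of day. Total RNA from the left adrenal of each of 6 female rhesus macaques, all ovariectomized, was hybridised to 6 Affymetrix arrays designed on human genes, 1 animal and 1 array per clock time, from 3 AM through 7 AM, 11 AM, 3 PM and 7 PM to 11 PM. All animals lived in individual cages, in rooms of 8, for 3 months in a cycle of 12 h light and 12 h dark, and had fasted for 12 h. Ages followed the clock, at 12 years for the 3 AM and 7 AM animals, 10 years and 37 days for 11 AM, 8 years and 106 days for 3 PM, 7 years and 82 days for 7 PM and 8 years and 70 days for 11 PM. The sources used here do not say when the lights came on, so day and night below are clock hours, with 7 AM, 11 AM and 3 PM as day and 7 PM, 11 PM and 3 AM as night. All animals lacked ovaries, and no intact animal was among them.

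The proteasome is the protease that degrades proteins tagged with ubiquitin in the cytoplasm and nucleus. Its 20S core is a barrel of stacked alpha and beta rings with the proteolytic sites inside, and a 19S cap, made of an ATPase-containing base and a lid, binds ubiquitin chains, removes them and feeds the unfolded substrate into the core. Core and caps together make the 26S particle, and its subunit genes are known to be raised together by the transcription factor NFE2L1 when proteolysis is short, while interferon exchanges the catalytic beta subunits for those of the immunoproteasome.

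Markers of both adrenal compartments were present on every array. CYP17A1, the 17-alpha-hydroxylase of the cortex, lay between 28646 and 40394, and TH, which makes the catecholamine precursor in chromaffin cells, lay between 1903 and 8245. The summed level of 7 cortex genes was 59277 to 62941 by day and 54375 to 81868 by night. That of 7 chromaffin genes was 22341 to 37186 by day and 14508 to 22166 by night. Of the chromaffin genes, 4 of 7 passed an unadjusted threshold of 0.05 as higher by day, against 2.95% of the 7164 genes that reached the filter. After adjustment for the number of genes, 0 of 7 passed. All 7 cortex genes had lower day means, against 50.9% of the 7164, with 0 of 7 past the unadjusted threshold. None of these markers was at 0, the lowest value being 23.6 for MC2R, the ACTH receptor, at 11 AM. The deposited values were already scaled, with a trimmed mean of 325 on each array. The spiked hybridisation controls were weak on the 3 AM array (geometric mean 414) and the 3 PM array (538), and read 790 to 900.5 elsewhere. The 3'/5' ratio of GAPDH, a sign of RNA integrity, ran from 0.721 at 7 AM to 1.16 at 3 PM. That of ACTB ran from 0.610 at 3 PM to 0.819 at 3 AM, so the ratios did not order the arrays alike. Intensities of single genes are compared here within a probe set, because probes of human design bind macaque transcripts unequally. The level filter, the classes of level and the summed levels do set probe sets beside each other. The sums are weighted to the strongest probe sets, with CYP17A1 at 28646 of the cortex sum of 54375 at 3 AM and CHGB at 7835 of the chromaffin sum of 14508. In these whole-gland samples, fewer cells of a type and less RNA per cell cannot be told apart.

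A 24-h cosine was fitted to log2 intensity of each gene over the 6 arrays, to ask whether proteasome genes vary over the day. None of the 37 tested genes passed limma's moderated F test after Benjamini-Hochberg adjustment over all 7164 genes, and none passed the unadjusted threshold of 0.05, which 5.56% of all genes tested passed. The ordinary F test called 0 of 37 at the unadjusted threshold, against 5.75% of all genes. No gene at all passed after adjustment, by either test. With 1 animal per clock time, the error in these fits is how far single animals lie from the curve, and the number of arrays limits the precision.

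The fitted swings were small in most members. The median ratio of fitted peak to trough was 1.26 for the 37 genes, from 1.06 in PSMD6 to 1.75 in PSMC3, and 1.35 for all genes tested. The median standard error of the log2 ratio was 0.31 in both sets. The highest of the 6 intensities was a median of 1.59 times the lowest in the members and 1.69 times in all genes. It was at least 2 times the lowest in 6 of 37 members, namely PSMA2, PSMA3, PSMB6, PSMC3, PSMD3 and PSMD14, and in 27.6% of all genes. Among the more abundant genes, those at or above the 75th percentile of level, these values were closer, with a median fitted ratio of 1.26 in 32 members and 1.31 in 3804 genes, and a highest-to-lowest ratio of 1.60 in both.

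A failed test with 6 animals does not show a flat gene, so the largest swing that the fit still allows was taken from the joint 95% confidence region of the cosine and sine terms. That upper end was under 2-fold in 4 of 37 members, at 1.81 for PSMD6, 1.94 for PSME1, 1.98 for PSMD9 and 1.99 for PSME3. It was under 3-fold in 29 members and under 4-fold in 36, the exception being PSMC3 at 4.34. Over all genes tested, 7.22% lay under 2-fold, 65.7% under 3-fold and 85.6% under 4-fold. For 33 of 37 members, a swing of 2-fold was still inside the region.

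**Figure D1:**
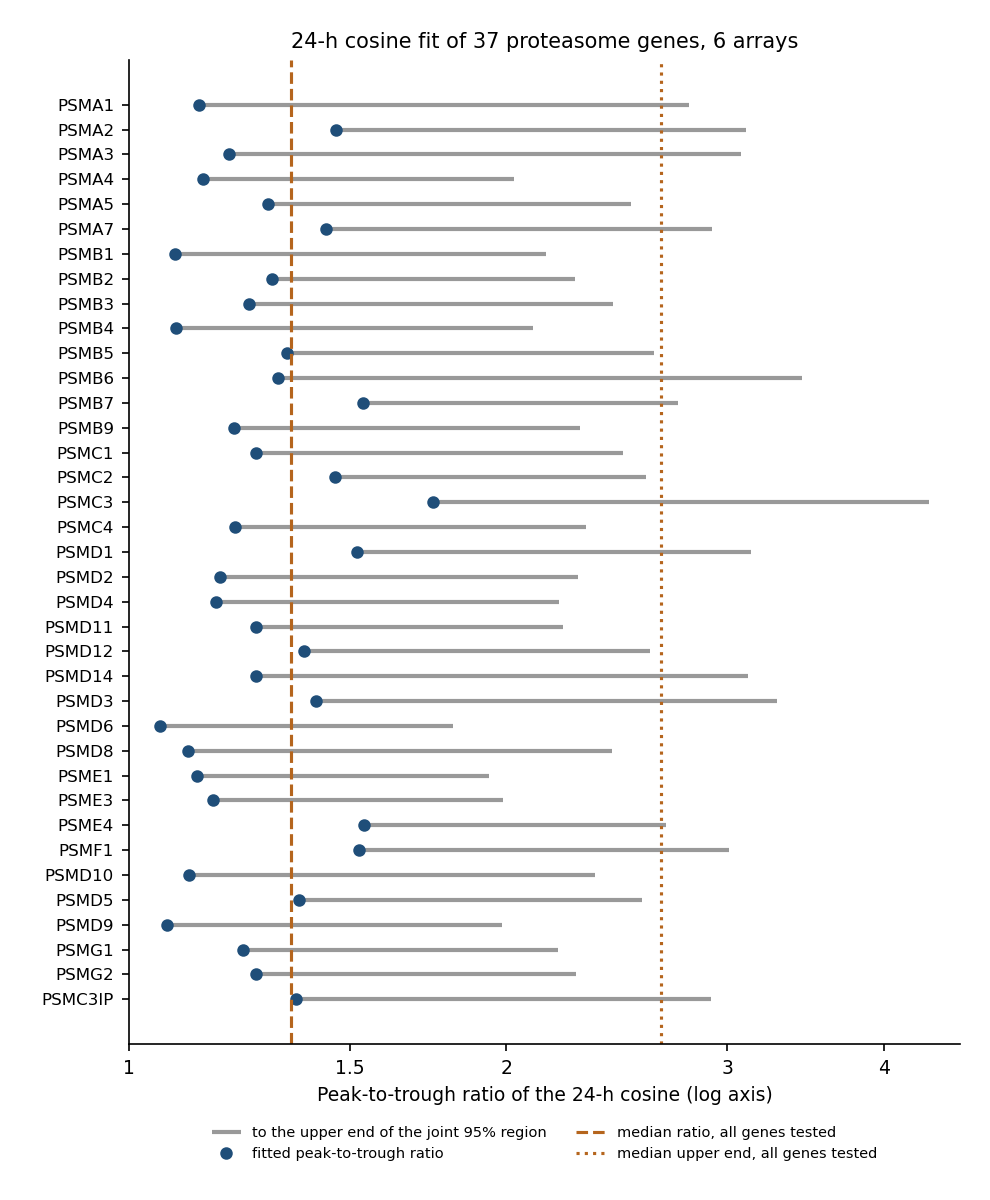
Fitted peak-to-trough ratio of the 24-h cosine (points, log axis) for the 37 tested proteasome genes, with a line to the upper end of the joint 95% region, over 6 arrays. Points run from 1.06 (PSMD6) to 1.75 (PSMC3) around a median of 1.26, the dashed line marks the median ratio of all genes tested, 1.35, and the dotted line their median upper end, 2.66.

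The alpha ring forms the outer gate of the core. PSMA2 had intensities of 1752 at 3 AM, 1812 at 7 AM, 1593 at 11 AM, 1048 at 3 PM, 2129 at 7 PM and 1841 at 11 PM. The 3 PM animal stood lowest and the day and night values overlapped. Its day mean was lower by log2 -0.39 ± 0.24 (SE), which limma did not call (unadjusted p = 0.14, adjusted p = 0.92, with 3 day and 3 night arrays). Without the 3 PM array the difference was log2 -0.16 (unadjusted p of 0.47 by limma). A second probe set of PSMA2 followed the same course, with 308 at 3 PM and 505 at 7 PM as its lowest and highest values and a correlation of 0.97 with the first over the 6 arrays.

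PSMA7 read 446 at 3 AM, 638 at 7 AM, 570.0 at 11 AM, 742 at 3 PM, 696 at 7 PM and 836 at 11 PM. The 3 AM value was the lowest and the fitted peak, 1.44 times the trough, fell at 18.2 h (unadjusted p = 0.35, limma). A straight line on age had a higher R2 for PSMA7 than the cosine, 0.56 against 0.40, although the cosine has 1 more term. Because ages followed the clock, age and clock time cannot be told apart for this or any other gene. Its second probe set, above the filter, peaked at 7.13 h with a fitted ratio of 2.34 and had a correlation of -0.17 with the first over the 6 arrays. The other alpha subunits, PSMA1, PSMA3, PSMA4 and PSMA5, had fitted ratios of 1.14 to 1.29. They did not share a course: PSMA1 was lowest at 7 AM, at 2228, and highest at 11 PM, at 4442, whereas PSMA3 was highest at 7 PM, at 3008, and lowest at 11 PM, at 1478. Over the 15 pairs of alpha subunits the median correlation across the 6 arrays was -0.07.

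Of the beta subunits without a proteolytic site, PSMB2 had day values of 999 to 1143 and night values of 1212 to 1398, which did not overlap. Its day mean was lower by log2 -0.29 ± 0.18 (SE) and was not called by limma (unadjusted p = 0.14). Its second probe set, at 125 to 385, had the opposite sign, log2 0.36 ± 0.46 (SE). PSMB1, PSMB3 and PSMB4 had fitted ratios of 1.09 to 1.25. All 4 of these subunits were under their own mean at 3 PM.

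The 3 catalytic subunits of the constitutive core had fitted ratios of 1.31 (PSMB6), 1.34 (PSMB5) and 1.54 (PSMB7), and highest-to-lowest ratios of 2.12, 1.68 and 1.59 in the same order. PSMB7, the trypsin-like subunit, had the second smallest p of the tested members. Its intensity was 1413 at 3 AM, 1419 at 7 AM, 1253 at 11 AM, 1260.4 at 3 PM, 1795 at 7 PM and 1986 at 11 PM. The 7 PM and 11 PM animals were the high ones, and 3 AM lay among the day values. The fitted peak was at 22.4 h and 1.54 times the trough (log2 0.62 ± 0.28, SE), with an unadjusted p of 0.15 by limma and an exact p of 0.117 over the 60 circular orders of the arrays, where 0.0167 is the smallest possible. The day mean was lower by log2 -0.39 ± 0.20 (SE), with an unadjusted p of 0.084 by limma. Leaving out single arrays gave log2 -0.28 without 11 PM (unadjusted p of 0.24 by limma) to -0.53 without 3 AM (p of 0.034), the last being the only 1 of 6 past the unadjusted threshold.

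PSMB6, the caspase-like subunit, read 799 at 3 AM, 1349.8 at 7 AM, 1120.2 at 11 AM, 788 at 3 PM, 1353 at 7 PM and 1674 at 11 PM. It had 2 low arrays 12 h apart, 3 AM and 3 PM, so a 24-h curve described little of it, with an R2 of 0.12 and an unadjusted p of 0.70 by limma, and 0.063 without 3 AM. PSMB5, the chymotrypsin-like subunit and the main target of proteasome inhibitor drugs, read 475 at 3 AM, 737 at 7 AM, 619.5 at 11 AM, 666 at 3 PM, 800.2 at 7 PM and 554 at 11 PM. Day and night overlapped, with a day mean higher by log2 0.18 ± 0.23 (SE), or 0.01 without 3 AM and 0.39 without 7 PM. All 3 catalytic subunits were above their own mean at 7 PM and below it at 3 AM and 11 AM.

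The immunoproteasome subunits, which replace the catalytic subunits in cells exposed to interferon and in lymphoid cells, were unequally measured. PSMB9, the counterpart of PSMB6, read 721 at 3 AM, 748 at 7 AM, 498 at 11 AM, 661 at 3 PM, 594 at 7 PM and 589 at 11 PM. Its range was 1.5-fold, and its day and night means differed by log2 -0.01 ± 0.22 (SE). PSMB8, the counterpart of PSMB5, read 23.5 at 3 AM, 174 at 7 AM, 16.2 at 11 AM, 42.8 at 3 PM, 20.2 at 7 PM and 18.4 at 11 PM. The 7 AM animal alone was above the level of the filter, and the other 5 were far under it. PSMB10, the counterpart of PSMB7, read 43.1 at 3 AM, 199.6 at 7 AM, 232 at 11 AM, 27.9 at 3 PM, 108 at 7 PM and 19.2 at 11 PM. The 7 AM and 11 AM animals were above the filter level and the other 4 under it.

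**Figure D2:**
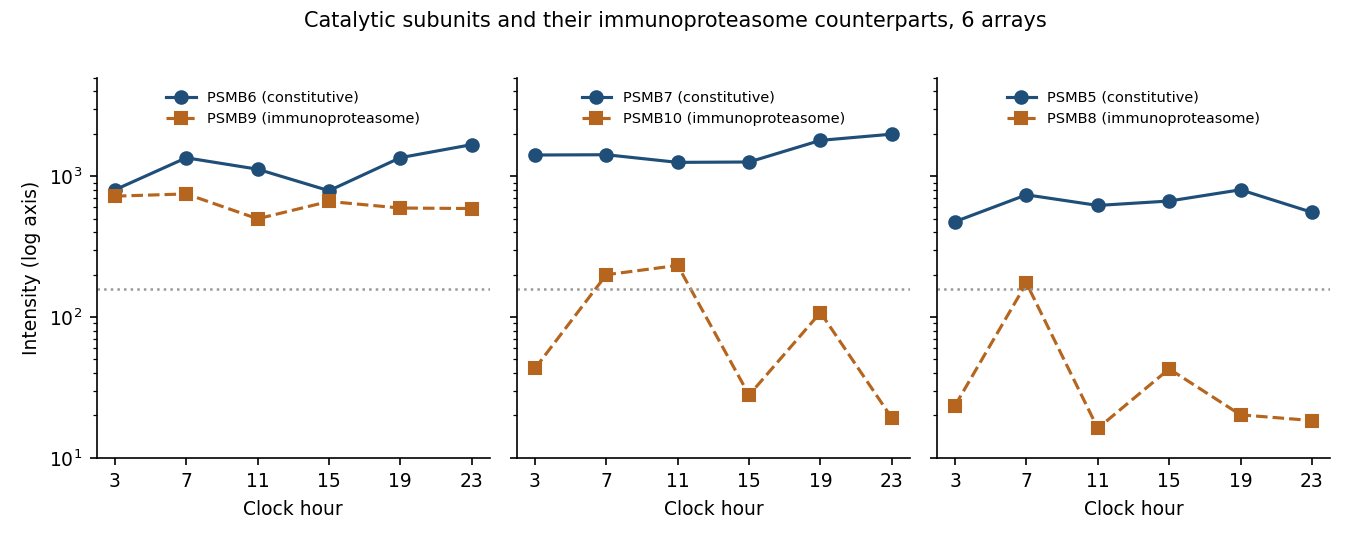
Intensity (log axis) against clock hour for the 3 constitutive catalytic subunits (circles) and their immunoproteasome counterparts (squares), 1 animal per point; the dotted line is the level of the filter. PSMB9 stays above that line throughout, while PSMB8 crosses it only at 7 AM and PSMB10 only at 7 AM and 11 AM; heights are not comparable between genes.

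In the RefSeq macaque annotation (assembly T2T-MMU8v2.0), PSMB9, TAP1 and PSMB8 are neighbouring genes. TAP1, which carries proteasome products to the endoplasmic reticulum for display on MHC class I, read 219.7 at 3 AM, 269 at 7 AM, 141 at 11 AM, 160.2 at 3 PM, 84.1 at 7 PM and 267 at 11 PM, so 7 AM was its highest array as well as that of PSMB8 and PSMB9. In the list of 17 interferon and antigen presentation genes, 14 were tested, 2 passed the unadjusted threshold of the cosine fit by limma, against 5.56% of all genes, and 0 passed after adjustment. These were CIITA, the master switch of MHC class II, highest at 3 AM (491) and lowest at 7 PM (107), and ERAP1, a peptide-trimming enzyme, lowest at 7 AM (162) and highest at 11 PM (431). The highest value was at 7 AM in 6 of the 14, among them HLA-C at 13090.0, against 16.8% of all genes tested. That array was singled out after its values were seen. Lymphocyte markers, with 6 of 12 listed genes above the filter, summed to 1822 at 7 AM, inside the range of 1524 to 2284 over the arrays, and of the T cell genes CD8A was highest at 7 AM (487) and CD2 at 3 PM (286), with CD3E at 25.9 to 263, CD247 at 17.5 to 249 and CD3G at 22.8 to 33.5, these 3 under the filter. Macrophage markers, with 8 of 10 above it, summed to 4078 at 7 AM, the top of their range of 2979 to 4078, and their part in the values of PSMB8 and PSMB10 was not tested.

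In the base of the 19S cap, ATPases unfold the substrate. PSMC3 had the widest fitted swing of the 37 tested members, with 518 at 3 AM, 832 at 7 AM, 458 at 11 AM, 289.5 at 3 PM, 573 at 7 PM and 481 at 11 PM. The 7 AM animal was high and the 3 PM animal low, and the fitted ratio of 1.75 (log2 0.81 ± 0.43, SE) had an unadjusted p of 0.24 by limma. Single arrays moved it widely, to log2 0.35 without 3 PM (unadjusted p of 0.73 by limma), 0.53 without 7 AM (p of 0.43), 1.23 without 3 AM (p of 0.14) and 1.38 without 7 PM (p of 0.041). PSMC2 read 2477 at 3 AM, 2483 at 7 AM, 1813 at 11 AM, 1681 at 3 PM, 2342 at 7 PM and 2333 at 11 PM. Here 11 AM and 3 PM formed the low pair, and the fitted peak at 1.85 h was 1.46 times the trough, with an unadjusted p of 0.20 by limma and an exact p of 0.133 over the 60 orders.

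PSMC1 had the opposite tendency, with 840.4 at 3 AM, 1349 at 7 AM, 1078 at 11 AM, 1342 at 3 PM, 1039 at 7 PM and 1148 at 11 PM. Its day mean was higher by log2 0.32 ± 0.20 (SE), the highest of the 37 tested members, with overlapping values and an unadjusted p of 0.15 by limma. Without the 3 AM array it was log2 0.19 (unadjusted p of 0.40 by limma). PSMC4 had a fitted ratio of 1.21, and PSMC6, under the filter, ranged from 52.0 at 7 PM to 134 at 7 AM. All 4 tested ATPases were above their own mean at 7 AM and below it at 11 AM.

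Among the tested members, PSMD1, PSMD2 and PSMD4 are the non-ATPase subunits of the base, PSMD4 being a ubiquitin receptor. PSMD1, a scaffold, read 1454 at 3 AM, 1474 at 7 AM, 1734 at 11 AM, 1332 at 3 PM, 2136 at 7 PM and 2456 at 11 PM. As with PSMB7, the 7 PM and 11 PM animals were the high ones and 3 AM was among the lowest. The fitted ratio was 1.52, with a peak at 21.5 h (unadjusted p = 0.28, limma). Its day mean was lower by log2 -0.39 ± 0.24 (SE), with an unadjusted p of 0.14 by limma. With each array left out in turn the difference ran from log2 -0.23 without 11 PM (unadjusted p of 0.40 by limma) to -0.61 without 3 AM (p of 0.027), and only the last passed the unadjusted threshold. A second probe set of PSMD1, also above the filter, had a day difference of log2 0.01 ± 0.25 (SE) and a correlation of 0.31 with the first over the 6 arrays. All 3 of these genes were above their own mean at 7 PM and 11 PM and below it at 3 AM and 3 PM.

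The 6 lid subunits tested shared most of their highs and lows. All 6 were above their own mean at 7 AM and at 11 PM, none was at 3 PM, and 1 of 6, PSMD11, was at 3 AM. PSMD14, the enzyme that cuts ubiquitin off the substrate, read 888 at 3 AM, 1328 at 7 AM, 1272 at 11 AM, 974 at 3 PM, 1246 at 7 PM and 1954 at 11 PM. PSMD12 read 500.4 at 3 AM, 588 at 7 AM, 449 at 11 AM, 495 at 3 PM, 538 at 7 PM and 751 at 11 PM, with the 11 PM animal alone above the rest; its second probe set was highest at 3 AM, at 245, with a correlation of 0.05 with the first. PSMD3 was lowest at 3 AM, at 321, and highest at 7 PM, at 708. At the other end, PSMD6 was the steadiest tested member, with 1284 to 1481 over all 6 arrays, a range of 1.15-fold. Over the 15 pairs of lid subunits the correlation across arrays was positive in every pair, with a median of 0.49, a description without a test, since all pairs come from the same arrays and genes.

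Most structural subunits had their lowest value on 1 of 2 arrays 12 h apart. Of the 26 constitutive core, base and lid subunits tested, 19 had their lowest value at 3 AM (11 genes) or 3 PM (8 genes), against 33.0% of all genes tested. This pair of arrays was singled out after the values were seen. Their highest value was at 11 PM in 13, at 7 PM in 7 and at 7 AM in 5, which leaves PSMB3 alone, highest at 3 AM. Of all genes tested, 14.8% were highest at 11 PM, 18.3% at 7 PM and 16.8% at 7 AM. At 11 PM 22 of 26 were above their own mean, and at 3 PM 6 of 26, against 48.9% and 55.2% of all genes tested. The median pairwise correlation across the 6 arrays was 0.34 over 325 pairs of these subunits, of which 76.9% were positive, and 0.00 over all pairs of genes tested. These pairs share the same 6 arrays, including their scaling, and the pairs of all genes were not matched to the subunits in level. Genes of any kind with a mean log2 intensity of 11 or more had median deviations of log2 -0.13 at 3 AM, 0.11 at 7 AM, -0.08 at 3 PM and 0.07 at 11 PM. From 10 to 11 these were 0.01, 0.03, -0.05 and 0.02. The part of level in the correlation was not tested. PSMB6 and PSMD14 were the most typical, with a median correlation of 0.62 with the other 25 subunits, followed by PSMD6 at 0.58.

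The 3 AM and 3 PM arrays are also those with the low hybridisation controls. Abundant genes of every kind were lowest there more often than weak ones: 27.6% of genes with a mean log2 intensity under 9, 36.0% from 9 to 10, 40.3% from 10 to 11 and 58.4% at 11 or more. The members lowest there were 2 of 9, 7 of 10, 11 of 14 and 2 of 4 in the same classes. Cell type markers also differed between the arrays, and not all along this course. All 7 cortex genes were above their own mean at 7 PM and 11 PM and 1 of 7 at 3 AM. Of the 7 chromaffin genes, 5 had their lowest value at 3 AM, but 6 were above their mean at 3 PM and 1 at 11 PM. Of 4 smooth muscle genes, 3 were above their mean at 3 AM and 0 at 11 PM, and the 2 adipocyte genes were highest at 3 AM. The part of the array signal and of these cell types in the shared course was not tested. On second probe sets the count was 4 of 10 structural subunits. With quantile normalization it was 19 of 26, and with arrays centred on their median 22 of 26.

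**Figure D3:**
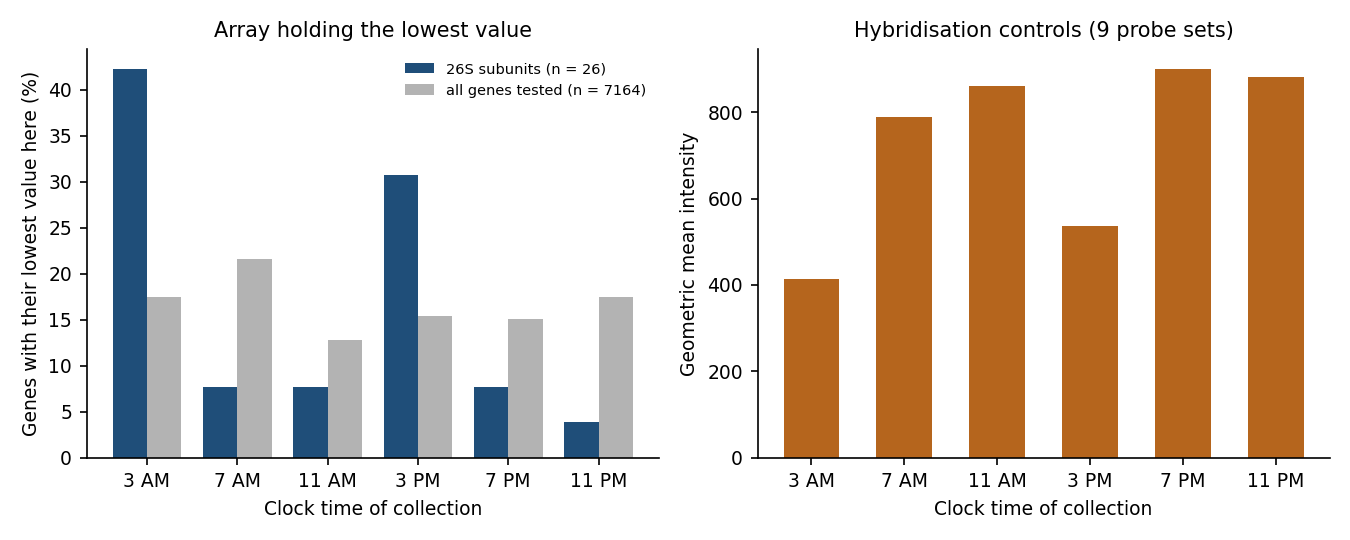
Left, the percentage of 26 structural proteasome subunits and of 7164 tested genes whose lowest value fell on each array; right, the geometric mean intensity of 9 hybridisation control probe sets on the same arrays. The subunits gather at 3 AM (11 of 26) and 3 PM (8 of 26), the arrays whose controls read 414 and 538.

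The activators and the inhibitor of the core held the 1 member called in the contrast of day against night. PSME4, also named PA200, caps the core without needing ATP or ubiquitin and is known for acetylated histones as substrates. It read 452 at 3 AM, 351 at 7 AM, 300.2 at 11 AM, 318 at 3 PM, 453 at 7 PM and 422 at 11 PM. The 3 day values, 300.2 to 351, lay below all 3 night values, 422 to 453. Its day mean was lower by log2 -0.45 ± 0.18 (SE), a night level 1.37 times the day level, with an unadjusted p of 0.031 and an adjusted p of 0.83 by limma.

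PSME4 thus did not pass the adjusted test, and it was the only one of 37 members past the unadjusted threshold in the lower direction, which 2.44% of all genes passed. In the higher direction, 0 of 37 members and 2.95% of all genes passed, and after adjustment no gene passed. The ordinary t statistic called 2 members, PSME4 and PSMB2, against 5.43% of all genes in either direction, where limma called 1 member and 5.39% of all genes. Day values lay wholly below night values in 3 members, PSME4, PSMB2 and PSMG2, against 5.26% of all genes, and wholly above in 0, against 5.61%. An exact test of 3 arrays against 3 cannot go below 0.1.

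The cosine of PSME4 peaked at 23.5 h, 1.54 times its trough, with an R2 of 0.85 and the smallest unadjusted p of the tested members, 0.13 by limma. Its exact p over the 60 orders was 0.167. A straight line on age had an R2 of 0.01 for this gene, but age and clock time cannot be told apart in these animals. The contrast passed the unadjusted threshold without the 7 AM array, but not without any of the other 5, where p ran from 0.0502 to 0.101 by limma. Its 2 further probe sets differed. One read 513 at 3 AM, 221 at 7 AM, 276 at 11 AM, 235 at 3 PM, 317 at 7 PM and 334 at 11 PM, again with all day values below all night values (log2 -0.64 ± 0.26, SE). The other read 214 at 3 AM, 218 at 7 AM, 186 at 11 AM, 159.9 at 3 PM, 134 at 7 PM and 228 at 11 PM and had no day difference (log2 0.00 ± 0.28, SE). Day means were lower in all 7 cortex markers, as in PSME4, and higher in all 7 chromaffin markers. Of 5 adipocyte markers 2 were above the filter, LPL and FABP4. Both passed the unadjusted threshold as lower by day, against 2.44% of all genes, and neither passed after adjustment. The summed level over the 5 was 1287 to 2115 by day and 1983 to 3716 by night. Of 5 tested fibroblast and capsule genes 1 passed as lower by day. The part of these cell types in the result was not tested.

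PSMF1, the PI31 protein, first described as an inhibitor of the core, read 449.8 at 3 AM, 510.4 at 7 AM, 290.4 at 11 AM, 374 at 3 PM, 519 at 7 PM and 487 at 11 PM. The 11 AM and 3 PM animals were the low ones. Its fitted peak at 23.9 h was 1.52 times the trough, with an unadjusted p of 0.24 by limma. Its day mean was lower by log2 -0.34 ± 0.24 (SE), with an unadjusted p of 0.18 by limma. That value depended on single arrays, from log2 -0.15 without 11 AM (unadjusted p of 0.56 by limma) to -0.55 without 7 AM (p of 0.035).

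PSME1, a subunit of the interferon-inducible 11S activator, was among the steadiest tested members, with 1717 at 3 AM, 1905 at 7 AM, 1684 at 11 AM, 1796 at 3 PM, 1656 at 7 PM and 1561 at 11 PM. Its range was 1.22-fold, and its day mean was higher by log2 0.13 ± 0.17 (SE). PSME3, which forms the nuclear 11S activator, read 1417 at 3 AM, 1311 at 7 AM, 1306 at 11 AM, 1276 at 3 PM, 1288 at 7 PM and 1539 at 11 PM, a range of 1.21-fold. Its further probe sets above the filter had correlations of -0.40 and 0.58 with the first. All 4 genes of this group were above their own mean at 3 AM, and none was at 11 AM.

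**Figure D4:**
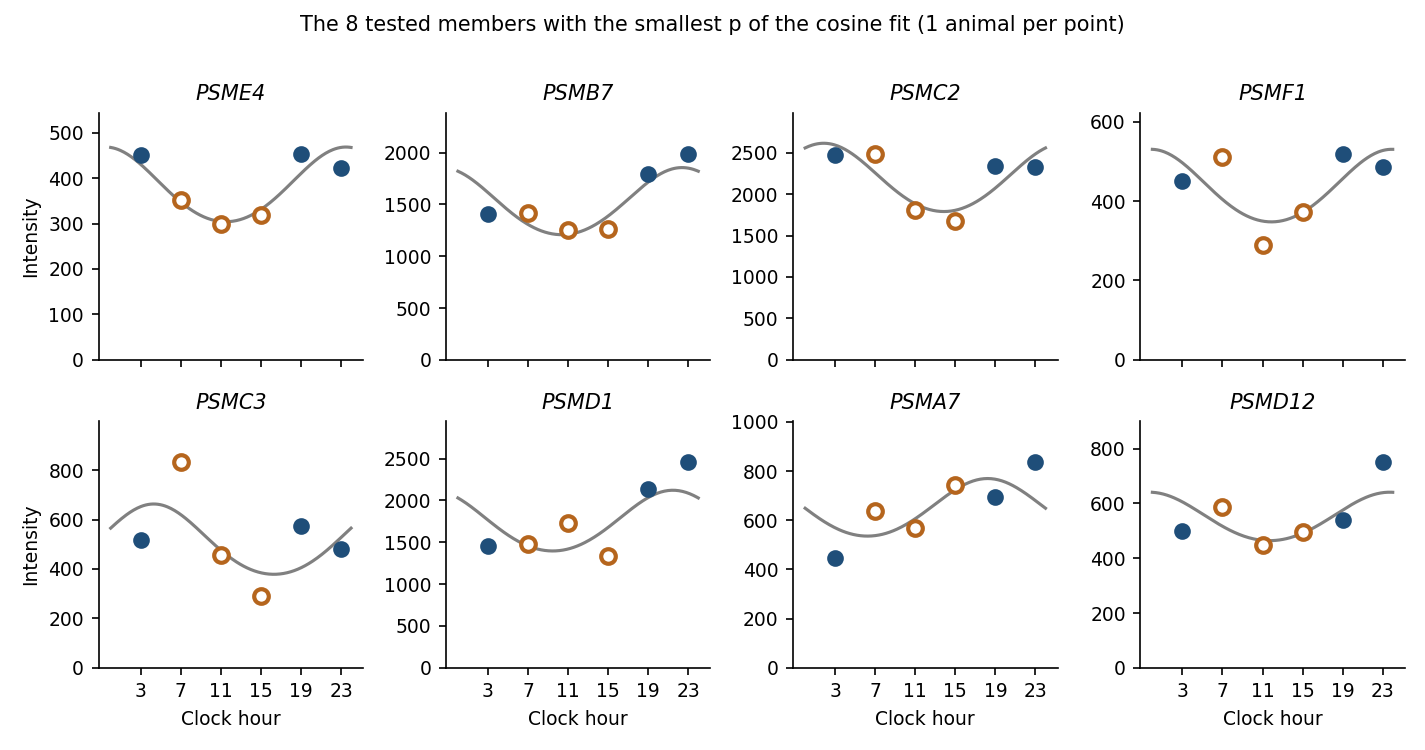
Intensity against clock hour for the 8 members of smallest cosine p, 1 animal per point, day hours as open and night hours as filled points, with the fitted 24-h cosine as a line. In PSME4 the 3 open points, 300.2 to 351, lie below the 3 filled ones, 422 to 453, while in the other 7 panels day and night overlap; unadjusted p by limma runs from 0.13 (PSME4) to 0.36 (PSMD12).

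Assembly of the particle needs dedicated chaperones that are not part of it. PSMD5, PSMD9 and PSMD10 hold base ATPases before the cap closes, and PSMG1 and PSMG2 form the dimer on which the alpha ring is built. PSMD9 read 298 at 3 AM, 218 at 7 AM, 285 at 11 AM, 245 at 3 PM, 238 at 7 PM and 235 at 11 PM. PSMG1 read 583 at 3 AM, 443 at 7 AM, 432 at 11 AM, 542 at 3 PM, 551 at 7 PM and 498 at 11 PM. In both, 3 AM was the highest array and 7 AM among the lowest, but a second probe set of PSMD9 was lowest at 3 AM, at 153, with a correlation of -0.52 with the first.

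PSMG2 read 1006 at 3 AM, 793 at 7 AM, 900.1 at 11 AM, 695 at 3 PM, 918 at 7 PM and 932 at 11 PM, with no overlap of day and night and a day mean lower by log2 -0.26 ± 0.19 (SE, unadjusted p = 0.19 by limma). All 5 chaperones were above their own mean at 3 AM, where 8 of 26 structural subunits were, and 4 of the 5 had their highest value there, the exception being PSMD10 at 7 PM. Of all genes tested, 51.9% were above their own mean at 3 AM and 17.1% had their highest value there. These shares are not matched for level. The median deviation from own mean at 3 AM was log2 0.04 over all genes with a mean log2 intensity under 9, and -0.13 at 11 or more. PSMD5, PSMD9, PSMD10 and PSMG1 lay under 9, and the part of level here was not tested. In PSMD5 the 3 AM value, 240.2, was close to 236.4 at 11 PM and 234 at 7 AM. All 5 had lower day means, by log2 -0.05 to -0.26, as had 50.9% of all genes, and none passed the unadjusted threshold. Their median correlation with the 26 structural subunits over the 6 arrays was -0.42 for PSMD10, -0.41 for PSMD9, -0.26 for PSMG1, 0.03 for PSMD5 and 0.17 for PSMG2. The last pair turned negative when single arrays were left out, PSMD5 to -0.041 without 7 AM and -0.071 without 11 PM, and PSMG2 to -0.40 without 3 PM. These 5 genes were set apart by their known role, and the difference between them and the subunits was not tested.

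**Figure D5:**
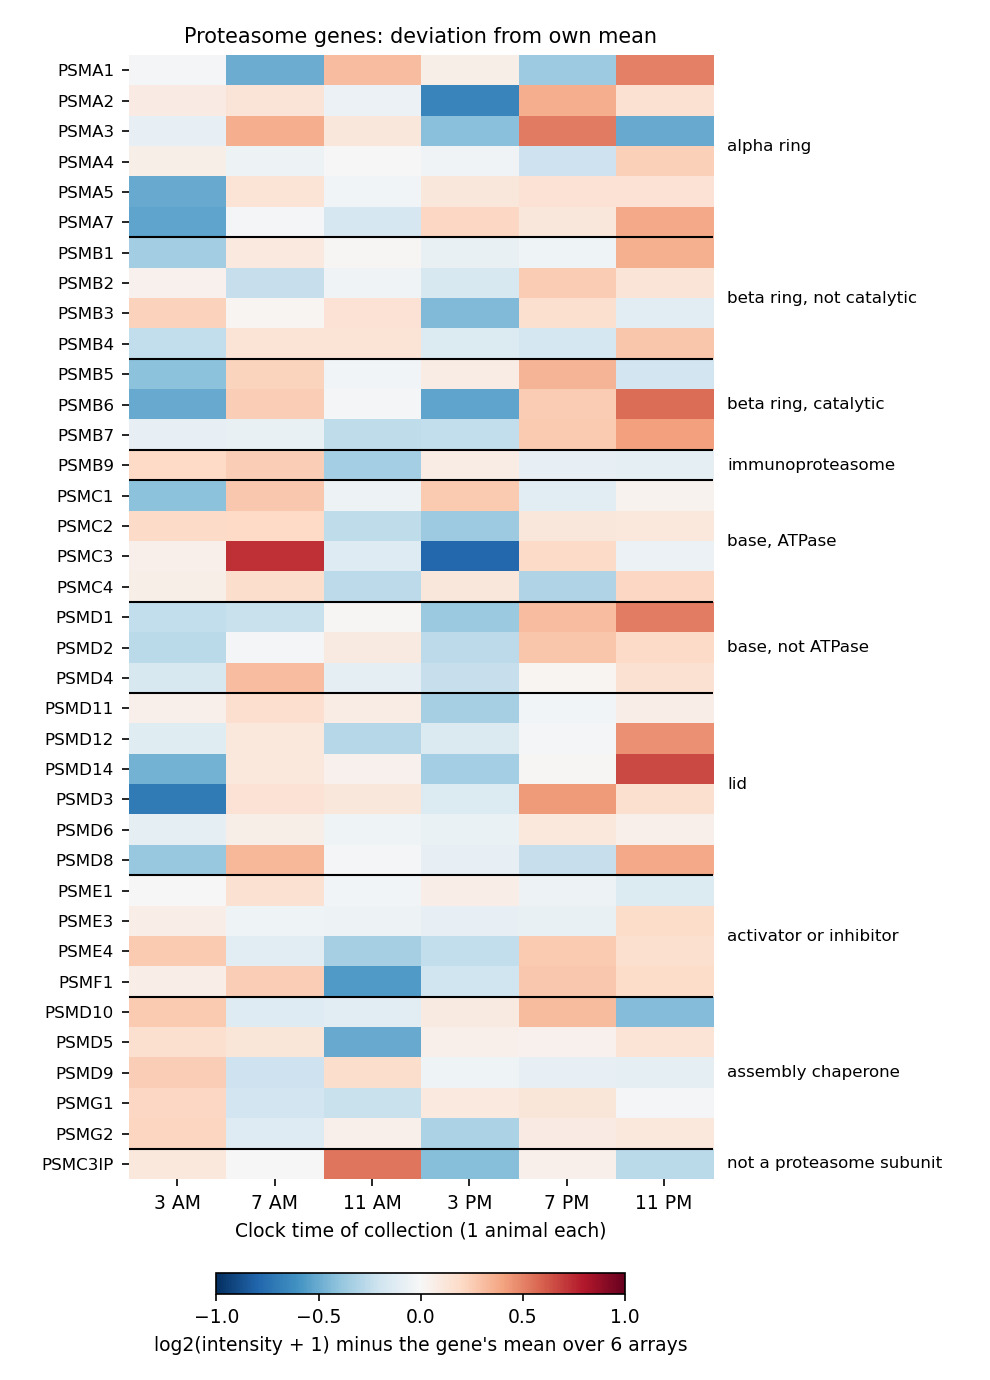
Deviation of log2(intensity + 1) from each gene's own mean (colour, red above and blue below) for the 37 tested members, in order of role, on the 6 arrays. The lid is above its mean in all 6 genes at 7 AM and 11 PM and in none at 3 PM, 18 of the 26 structural subunits are blue at 3 AM and 20 at 3 PM, and the 5 assembly chaperones are all red at 3 AM.

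Over all members, 25 of 37 had a lower day than night mean, against 50.9% of all genes tested, with a median day minus night difference of log2 -0.08 against 0.00. The fitted peak lay between 18 h and 6 h in 27 of 37, against 48.5%. The members share arrays and vary together, so these counts hold fewer independent values than genes. On second probe sets above the filter, 8 of 13 were lower by day.

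Agreement between probe sets of one gene was limited. Of 24 further probe sets on 17 genes, 17 were above the level filter. Their correlation with the gene's first probe set over the 6 arrays ran from -0.64 to 0.97 with a median of 0.15, was above 0.8 in 4 and below 0 in 5. The direction by day was that of the first probe set in 9 of 17. A value read from 1 probe set is therefore not always that of the gene.

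Of 34 listed genes around the proteasome in the ubiquitin pathway, 24 lay on probe sets naming 1 gene and 21 were tested. None of the 21 passed the unadjusted threshold of the cosine fit or of the contrast by limma, and 12 had lower day means. Their median fitted ratio was 1.23. ADRM1, a ubiquitin receptor of the cap, had the smallest p, 0.075 by limma, with 667 at 3 AM, 543 at 7 AM, 501 at 11 AM, 706 at 3 PM, 707 at 7 PM and 949 at 11 PM. UCHL5, the ubiquitin hydrolase that ADRM1 recruits, read 748 at 3 AM, 597 at 7 AM, 619.5 at 11 AM, 576 at 3 PM, 593 at 7 PM and 1027 at 11 PM. Both were highest at 11 PM, as were 13 of the structural subunits.

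ECPAS, a scaffold that binds the 26S particle, was about equally high at 3 AM (648) and 7 AM (648.5), and low at 7 PM (479) and 11 PM (473). NFE2L1, the factor that raises subunit genes, read 3175 at 3 AM, 4647 at 7 AM, 4804 at 11 AM, 4059 at 3 PM, 5642 at 7 PM and 5582 at 11 PM. Its lowest arrays were again 3 AM and 3 PM, where the hybridisation controls were low, and the part of the array signal in this was not tested.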

How the data were processed

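The deposited table holds linear intensities, 1 for each of 22283 probe sets on each array, from 0.1 to 40394, and its equal trimmed means show that the authors had scaled the arrays. The sources used here name neither the software nor the summary method. Labelled cRNA was made from total RNA by in vitro transcription from an oligo-dT primer, per the labels' protocols. Probe sets were named through the platform annotation, in which 19065 name 1 gene. Values were converted to log2(value + 1), so fold changes of weak genes are understated. Genes were tested where the mean reached log2 7.30.

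With limma 3.58.1 in R 4.3.3, a 24-h cosine (moderated F test, 3 residual degrees of freedom) and the contrast of 3 day against 3 night arrays were fitted to all 7164 genes, with Benjamini-Hochberg adjustment. The scripts were tested on simulated data. An exact order test of the R2 was run for 15 members. The values on all arrays are given for the 8 members with the smallest p of the cosine, the 3 of smallest p among genes higher and among genes lower by day, the catalytic and immunoproteasome subunits and PSME1 and PSME3; further members were named after their values were seen. The members and lists were chosen with earlier results of these data known. With 1 animal per clock time, the p-values rest on how far single arrays lie from the fit. Differences between animals, array noise and departures from the fitted shape cannot be told apart in that distance. Alternatives are given in the closing section. No sequences were available to match, and none is shown.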

Additional observations from a re-analysis of the deposited data

How the results depend on the processing

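The number of animals limits these results: a clock time without a second animal has no spread of its own, ages run along the clock, and probe sets under the level filter, such as those of PSMB8 and PSMB10, were not tested in the reported fit. No paired analysis was possible because no clock time was sampled in more than 1 animal. The count of members past the adjusted threshold was 0 in both tests under every alternative run. Members past the unadjusted threshold with a fitted ratio of at least 1.5 numbered 0 in the reported fit, where 5.56% of all genes passed. With no filter on level they numbered 2 of 41 (PSMC6 and PSME3IP1, otherwise not tested), against 5.19% of all genes. With age as a covariate they numbered 1 (PSMD14), against 5.95%. When each array was left out they numbered 0 to 1, the 1 being PSMC3 without 7 PM, where 5.05% of all genes passed. Members past the unadjusted threshold of the contrast numbered 1, then 0 with the stricter filter, which removes PSME4 from the test, and 2 with the ordinary test. The shares of all genes were 5.39%, 6.73% and 5.43% in the same order. When each array was left out, 0 members passed without 11 AM, 3 PM, 7 PM or 11 PM, 2 without 3 AM (PSMB7 and PSMD1) and 2 without 7 AM (PSME4 and PSMF1). The share of all genes in these 6 fits ran from 4.89% without 11 PM to 6.13% without 3 AM. With age as a covariate the median log2 peak-to-trough difference was 1.10 in the members and 1.18 in all genes, against 0.34 and 0.43. Because ages followed the clock, the age term overlaps the cosine and sine terms. That fit therefore cannot tell age and clock time apart in any gene, PSMD14 included. With the second highest probe set, 13 genes were at or above the filter, 8 of them were lower by day, and 4 of 10 structural subunits were lowest at 3 AM or 3 PM, fewer genes having such a probe set. Members lower by day numbered 22 to 27 when each array was left out. Alternatives for correlations, for second probe sets in these counts and for the lowest arrays were chosen after seeing the data. Centring on the median moved the median pairwise correlation of members from 0.17 to 0.36, and leaving out each array gave 0.11 to 0.23. The median correlation of PSMD5 with structural subunits, 0.031, ran from -0.071 to 0.21 when each array was left out, with -0.041 without 7 AM and -0.071 without 11 PM, and that of PSMG2, 0.17, ran from -0.40 to 0.44, with -0.40 without 3 PM; the cause was not tested.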

Other observations

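PAAF1, a factor that binds base ATPases, lay under the level filter and was singled out after its values were seen. It read 172 at 3 AM, 81.8 at 7 AM, 104 at 11 AM, 86.1 at 3 PM, 194 at 7 PM and 168 at 11 PM, with all 3 day values below all 3 night values (log2 -0.97, no filter on level). PSME3IP1 ran along the animals' ages, from 227 at 3 AM, in one of the 2 oldest animals, to 63.7 at 7 PM, in the youngest, with an R2 of 0.73 for a line on age and 0.75 for the cosine. PSMC6 did so too, from 134 at 7 AM to 52.0 at 7 PM, with R2 values of 0.80 and 0.83. Both lay under the level filter. UBB, a polyubiquitin gene, was low on the 3 AM array (2175) and the 3 PM array (5126) and read 9944 to 12333 elsewhere, the widest range of the 21 pathway genes tested.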
